A study of Mus musculus with 15 samples.

Results

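The genes described here are the D cyclins Ccnd2 and Ccnd3, their kinases Cdk4 and Cdk6, the CDK inhibitors Cdkn1a, Cdkn1b, Cdkn2a, Cdkn2c and Cdkn2d, and the retinoblastoma gene Rb1. They were taken by gene symbol from a table of FPKM values (fragments counted, divided by transcript length and library size) and are 10 of its 23284 entries. The table has 15 RNA-seq libraries from mouse CD8 T cells that were sorted into 5 populations with 3 libraries each. All 5 populations come from OT-I mice, whose transgenic T cell receptor recognises the ovalbumin peptide SIINFEKL. Naive CD44loCD62L+ cells were not cultured (day 0; the series design gives their gate as CD44-CD62L+). The other 4 populations were mixed 2:1 with bone marrow-derived dendritic cells carrying that peptide and grown for 14 days, either in IL-2 or in a cocktail that held TWS119 (an inhibitor of the kinase GSK3), 2-deoxyglucose (an inhibitor of glycolysis), IL-21 and IL-7. IL-2 cells were sorted as CD44+CD62L-, and cocktail cells as CD44+CD62L-, CD44+CD62L+ or CD44loCD62L+. CD44 marks T cells that have met antigen, and CD62L is the receptor with which naive and central memory cells enter lymph nodes. The 3 libraries of a population are technical replicates per the series design, so the errors and p-values below measure only the spread between libraries of one population and not between cultures or animals.

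D cyclins are the regulatory subunits that a mitogenic or antigen signal induces in G1, and they activate Cdk4 and Cdk6. The active kinases phosphorylate the retinoblastoma protein, which then releases E2F factors that transcribe the genes of DNA replication. INK4 inhibitors (Cdkn2a, Cdkn2c, Cdkn2d) bind Cdk4 and Cdk6 themselves, whereas CIP/KIP inhibitors (Cdkn1a, Cdkn1b) bind cyclin-CDK complexes and block Cdk2 above all. In resting T cells p27Kip1, the product of Cdkn1b, is known to be abundant, and it is degraded upon activation, and the kinases with their D cyclins carry the cell out of quiescence.

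Upstream sequence was looked up because several members differed together between naive and cultured cells. RefSeq start sites of build GRCm38.p6 matched 8 of the 10 genes, with 12 windows, and Ccnd2 and Rb1 had no entry. The 250 bases before each start were searched on both strands for E2F words (TTTCCCGC, TTTGGCGC, TTTCGCGC or TTTGCCGC), the E box CACGTG bound by Myc family factors, the FOXO word GTAAACA and the p53 consensus with at most 1 mismatch. No match overlapped another. The 4 windows printed below are those of Cdk4, for its E boxes, of the upstream Cdkn1a start, for its p53 match, and of both Cdkn2a starts, for their different products. They are read 5′ to 3′ on the gene's strand, with bases annotated as exon left out and matches in capitals. They lie at chr10:127063285-127063533 (plus strand), chr17:29090729-29090975 (plus strand), chr4:89294654-89294869 (minus strand) and chr4:89282193-89282442 (minus strand).
Cdk4: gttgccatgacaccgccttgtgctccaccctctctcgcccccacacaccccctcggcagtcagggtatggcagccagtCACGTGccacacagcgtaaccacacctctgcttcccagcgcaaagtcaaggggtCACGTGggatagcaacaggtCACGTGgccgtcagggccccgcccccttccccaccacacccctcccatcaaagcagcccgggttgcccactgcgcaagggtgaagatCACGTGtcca
Cdkn1a upstream start: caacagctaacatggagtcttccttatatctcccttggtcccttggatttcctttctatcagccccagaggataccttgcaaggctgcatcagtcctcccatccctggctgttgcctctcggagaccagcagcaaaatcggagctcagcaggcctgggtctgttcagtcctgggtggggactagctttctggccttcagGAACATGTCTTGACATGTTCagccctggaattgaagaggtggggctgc
Cdkn2a upstream start: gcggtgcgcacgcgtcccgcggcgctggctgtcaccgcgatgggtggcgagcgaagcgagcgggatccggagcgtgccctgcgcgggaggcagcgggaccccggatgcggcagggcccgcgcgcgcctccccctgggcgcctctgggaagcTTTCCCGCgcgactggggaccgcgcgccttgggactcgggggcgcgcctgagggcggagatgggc
Cdkn2a downstream start: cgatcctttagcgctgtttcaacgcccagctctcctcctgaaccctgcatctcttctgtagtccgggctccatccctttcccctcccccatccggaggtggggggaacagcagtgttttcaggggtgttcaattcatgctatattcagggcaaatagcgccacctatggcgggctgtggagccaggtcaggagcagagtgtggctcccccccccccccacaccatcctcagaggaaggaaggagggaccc
The Cdk4 window held 4 E boxes. An E box was in 6.021% of the 32851 windows of the same length in the table, and 4 or more were in 7 of them (0.0213%). Cdk6 held 1 E box. The upstream Cdkn1a window held a match to the p53 consensus with 1 mismatch (0.0761% of windows), and the downstream Cdkn1a window held none. The upstream Cdkn2a window held 1 E2F word (1.86% of windows) and the downstream window held no match. A FOXO word stood in 1 Ccnd3 window (3.166% of windows). The windows of Cdkn1b, Cdkn2c and Cdkn2d held no match, which says only that these letters are not in them.

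Library facts touch the members in a few places. FPKM carries no read count, so depth is unknown in absolute terms. The step that 1 read makes in low genes gave relative depths, with IL-2 replicate 1 set to 1, of 0.986 to 1.007 in naive, 1 to 1.014 in IL-2, 1.057 to 1.072 in cocktail CD44+CD62L-, 1.087 to 1.102 in cocktail CD44+CD62L+ and 1.231 to 1.248 in cocktail CD44loCD62L+ libraries. All 7 T cell markers listed were at 1 FPKM or more in every population, but their summed FPKM was 3762 to 3779 in naive and 2279.8 to 2835 in cultured libraries. Cd8b1 fell from a mean of 1059 FPKM in naive to 263 in IL-2 cells and was called lower in all 4 cultured populations, Cd8a was called lower in IL-2 and Cd2 in cocktail CD44+CD62L- cells. Of 3 CD4 T cell markers, Cd4 stayed under 1 FPKM, Zbtb7b rose in all 4 cultured populations (from 0.234 to 15.03 FPKM in IL-2 cells) and Foxp3 rose in IL-2 cells to 1.51 FPKM. Of 3 NK cell markers, Ncr1 was under 1 FPKM throughout, Klrb1c rose in IL-2 cells to 1.77 FPKM and Eomes had means of 10.3 (IL-2) to 39.9 FPKM (cocktail CD44loCD62L+). Summed FPKM of the dendritic cell and macrophage markers (13 of 14 listed were in the table) was 269 to 270.1 in naive, 32.1 to 33.5 in IL-2, 148 to 153 in cocktail CD44+CD62L-, 128 to 137 in cocktail CD44+CD62L+ and 163 to 167 in cocktail CD44loCD62L+ libraries, with C1qa at 0 in IL-2 cells. Summed FPKM of 5 B cell markers was 39.0 to 40.4 in naive libraries and 2.05 to 6.75 in the cultured ones, where Ms4a1 and Pax5 were at 0. In bulk RNA, fewer cells of a type and less RNA per cell cannot be told apart.

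**Figure D1:**
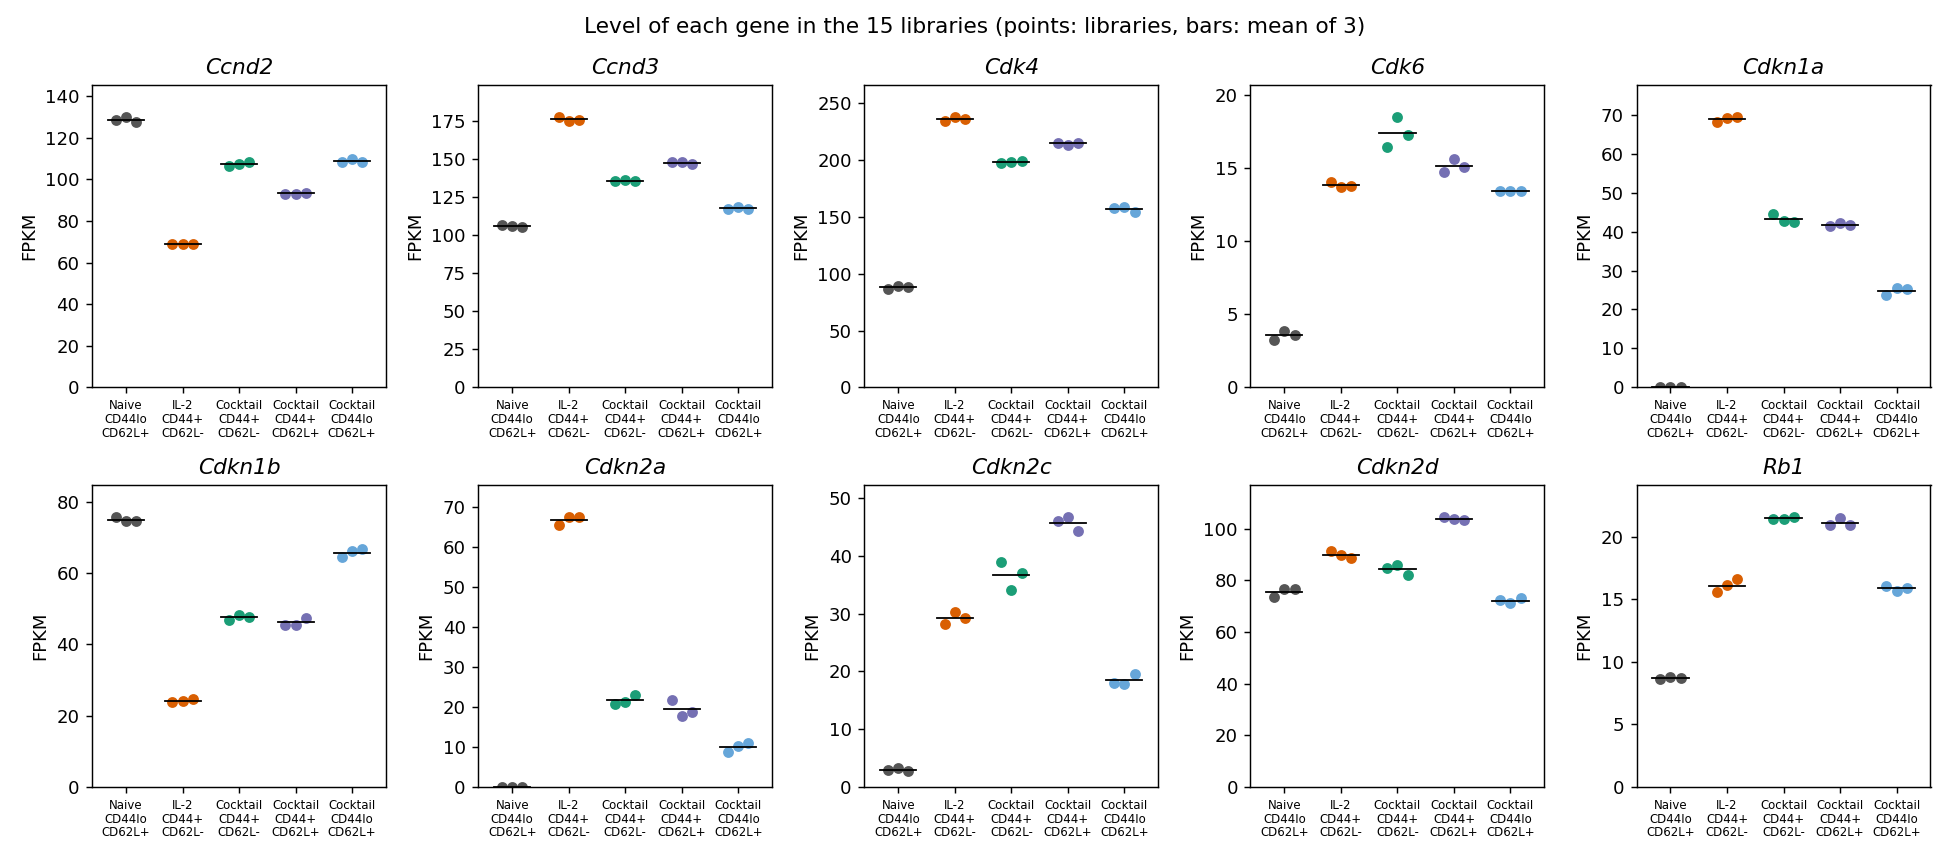
FPKM (y axis, linear from 0, a scale of its own for each gene) of the 10 genes in the 15 libraries, with 1 point per library, a bar at the mean of 3 and the 5 sorted populations on the x axis. Cdkn1a and Cdkn2a are near 0 in naive cells and highest in IL-2 cells, whereas Ccnd2 and Cdkn1b are highest in naive cells and lowest in IL-2 cells.

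The D cyclins took opposite orders across the populations: Ccnd2 was highest in naive and lowest in IL-2 cells, and Ccnd3 the reverse. Ccnd2 (chr6:127125162-127152193, minus strand) encodes cyclin D2, a D cyclin induced early in lymphocyte activation. It was at 129, 129.8 and 128 FPKM in the naive libraries and 68.8, 68.8 and 68.8 FPKM in IL-2 libraries. In the cocktail it was at 107, 108 and 108 FPKM in CD44+CD62L-, 93.2, 93.02 and 93.5 in CD44+CD62L+ and 108, 109.7 and 108 in CD44loCD62L+ libraries. No naive library overlapped a cultured one, and all 9 cocktail libraries lay between the naive and the IL-2 libraries. Cocktail CD44+CD62L- cells had 1.56-fold the level of IL-2 cells (log2 fold change 0.64, SE 0.00907, adjusted p = 8.26e-16), and IL-2 cells had 1.87-fold less than naive cells (log2 fold change -0.89, SE 0.00907, adjusted p = 3.84e-18). Both differences were past the spread of the libraries and below the fold minimum for a call, which asked for a Benjamini-Hochberg adjusted p under 0.05 by limma and a 2-fold difference on the log2(FPKM + 1) scale. Cocktail CD44loCD62L+ and cocktail CD44+CD62L- cells overlapped in Ccnd2 and did not differ at the threshold (adjusted p = 0.105), although after quantile normalization they did (adjusted p = 1.18e-06).

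Ccnd3 (chr17:47505051-47599691, plus strand) encodes cyclin D3, the D cyclin on which expansion of T cell precursors depends. Its FPKM was 107, 106 and 105 in naive, 177, 175 and 176 in IL-2 and 136, 136 and 136 in cocktail CD44+CD62L- libraries. Cocktail CD44+CD62L+ libraries had 148, 148 and 147 FPKM and cocktail CD44loCD62L+ libraries 117, 118 and 117. No population overlapped another in Ccnd3, and every neighbouring pair in the order differed at the adjusted p. The widest difference, IL-2 against naive, was 1.66-fold (log2 fold change 0.73, SE 0.00813, adjusted p = 1.09e-17), below the fold minimum. Bysl, a gene on the opposite strand that overlaps Ccnd3, was at 14.2 to 26.1 FPKM over all libraries. Whether counting used strand is not given in the sources used here, so reads from overlapping genes on opposite strands cannot be told apart.

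The sum of both D cyclins moved little while its make-up shifted. It was 235 ± 1.61 FPKM (SD, n = 3) in naive, 245 ± 1.11 in IL-2, 243 ± 1.01 in cocktail CD44+CD62L-, 241 ± 0.552 in cocktail CD44+CD62L+ and 227 ± 1.25 in cocktail CD44loCD62L+ cells. Ccnd2 made up 54.8% ± 0.191 (SD, n = 3) of that sum in naive cells and 28.1% ± 0.136 in IL-2 cells. Its share in the cocktail was 44.2% ± 0.214 in CD44+CD62L-, 38.7% ± 0.193 in CD44+CD62L+ and 48.03% ± 0.0427 in CD44loCD62L+ cells. Cyclin D2 was thus the larger part of D cyclin FPKM in naive cells alone, and the 5 populations did not overlap in the share. An exact permutation test of 3 against 3 libraries cannot go below a two-sided p of 0.1, which each of the 7 comparisons of this share reached. Ccnd1, the D cyclin of many other tissues, was at 0.3203 to 0.651 FPKM in all libraries and had too low a level to be tested.

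Both kinase genes were lowest in naive cells. Cdk4 (chr10:127063534-127067920, plus strand), the catalytic partner of the D cyclins whose upstream window with 4 E boxes is printed above, was at 86.9, 89.5 and 88.6 FPKM in naive and 234, 238 and 236 FPKM in IL-2 libraries. Its cocktail libraries were at 198, 198 and 199 FPKM (CD44+CD62L-), 216, 213 and 215 (CD44+CD62L+) and 157, 159 and 155 (CD44loCD62L+). The populations did not overlap, and the order from high to low was IL-2, cocktail CD44+CD62L+, cocktail CD44+CD62L-, cocktail CD44loCD62L+, naive, although quantile normalization turned the top pair (log2 fold change of cocktail CD44+CD62L+ against IL-2 -0.14, then 0.06). Cdk4 rose 2.67-fold in IL-2 against naive cells (log2 fold change 1.41, SE 0.01196, adjusted p = 6.25e-19). It also rose against naive cells in cocktail CD44+CD62L- (2.25-fold, log2 fold change 1.16) and in cocktail CD44+CD62L+ cells (2.43-fold, 1.27), whereas CD44loCD62L+ cells reached 1.78-fold (log2 fold change 0.82, SE 0.01196, adjusted p = 3.56e-16), under the fold minimum. Tspan31, which overlaps Cdk4 on the opposite strand, was at 15.9 FPKM in its lowest library, a naive one, and at 74.2 in its highest, an IL-2 one.

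Cdk6 (chr5:3341485-3531008, plus strand), the second D cyclin kinase and a prominent one in blood cells, was at a far lower FPKM than Cdk4 in each population. The naive libraries had 3.23, 3.86 and 3.57 FPKM and the IL-2 libraries 14.05, 13.7 and 13.7. Cocktail libraries had 16.4, 18.5 and 17.3 FPKM in CD44+CD62L-, 14.7, 15.6 and 15.1 in CD44+CD62L+ and 13.4, 13.5 and 13.5 in CD44loCD62L+ cells. Cdk6 was highest in cocktail CD44+CD62L- cells, where Cdk4 was below its level in IL-2 and in cocktail CD44+CD62L+ cells. It rose against naive cells in all 4 cultured populations, from a log2 fold change of 1.67 in CD44loCD62L+ cells (3.78-fold) to 2.01 in cocktail CD44+CD62L- cells (4.89-fold, SE 0.0462, adjusted p = 3.44e-14). IL-2 and cocktail CD44loCD62L+ cells did not differ in Cdk6 at the threshold (adjusted p = 0.444). Of summed Cdk4 and Cdk6 FPKM, Cdk6 made up 3.86% ± 0.274 (SD, n = 3) in naive, 5.53% ± 0.111 in IL-2, 8.06% ± 0.429 in cocktail CD44+CD62L-, 6.58% ± 0.212 in cocktail CD44+CD62L+ and 7.89% ± 0.111 in cocktail CD44loCD62L+ cells.

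Of the CIP/KIP inhibitors, Cdkn1a was near 0 in naive cells and Cdkn1b was highest there. Cdkn1a (chr17:29090976-29100727, plus strand) encodes p21, a target of p53 whose upstream window carries the p53 match printed above. Its naive libraries were at 0.0814, 0.0601 and 0.0202 FPKM, which are 4.04, 2.98 and 1 times the lowest, close to whole multiples of it, and no fold is given against such low values. The IL-2 libraries had 68.03, 69.02 and 69.3 FPKM. Cocktail libraries had 44.5, 42.7 and 42.4 FPKM in CD44+CD62L-, 41.5, 42.3 and 41.6 in CD44+CD62L+ and 23.6, 25.4 and 25.2 in CD44loCD62L+ cells. Each cultured library was thus far above each naive library, and Cdkn1a rose, in log2(FPKM + 1), a scale that makes changes near 0 look smaller, by 4.61 (CD44loCD62L+) to 6.05 (IL-2; SE 0.0290, adjusted p = 2.68e-21). Among cultured cells, cocktail CD44+CD62L- was 1.59-fold below IL-2 (log2 fold change -0.66, SE 0.0290, adjusted p = 8.79e-11) and CD44loCD62L+ was 1.69-fold below cocktail CD44+CD62L+ (log2 fold change -0.73, SE 0.0290, adjusted p = 6.21e-11), both short of the fold minimum. Set directly against IL-2 cells, cocktail CD44loCD62L+ cells had 2.78-fold less Cdkn1a (log2 fold change -1.44, SE 0.0290, adjusted p = 1.2e-14; 15.8% of all genes tested were called in this pair). The CD44+ cocktail populations did not differ at the threshold (adjusted p = 0.214).

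Cdkn1b (chr6:134920401-134925513, plus strand) encodes p27Kip1, the inhibitor linked with T cell quiescence. It was at 75.7, 74.5 and 74.5 FPKM in naive and 23.7, 24.3 and 24.8 in IL-2 libraries. In the cocktail its FPKM was 46.9, 48.2 and 47.7 in CD44+CD62L-, 45.5, 45.5 and 47.4 in CD44+CD62L+ and 64.4, 66.1 and 66.7 in CD44loCD62L+ libraries. IL-2 cells fell 3.09-fold below naive cells (log2 fold change -1.59, SE 0.0203, adjusted p = 4.3e-17), and all cocktail libraries lay between those groups. Cocktail CD44+CD62L- cells had 1.96-fold the FPKM of IL-2 cells (log2 fold change 0.94, SE 0.0203, adjusted p = 5e-14), just under the fold minimum, and CD44loCD62L+ cells rose 2.71-fold over IL-2 cells (log2 fold change 1.40, SE 0.0203, adjusted p = 4.2e-16). CD44loCD62L+ cells were 1.14-fold below naive cells (log2 fold change -0.19, SE 0.0203, adjusted p = 1.18e-06). The CD44+ cocktail populations overlapped (adjusted p = 0.0928). Across the populations the dendritic cell and macrophage marker sum was also highest in naive, next in cocktail CD44loCD62L+ and lowest in IL-2 libraries. That sum is mostly Ctss (144 FPKM in naive cells) and Cd74 (57.3), and single markers had other orders: Lyz2 was called higher in cocktail CD44+CD62L- than in naive cells (21.3 against 8.22 FPKM), and Itgax was highest in IL-2 cells (1.56 FPKM). The part of such cells in the Cdkn1b and Ccnd2 levels was not tested.

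Among the INK4 inhibitors, Cdkn2a separated the populations most widely. Cdkn2a (chr4:89274471-89294653, minus strand) yields p16Ink4a and, from another start and reading frame, p19Arf, which stabilises p53. The start sites lie 12427 bases apart, their windows are printed above, and the gene's single FPKM row cannot separate the products. Naive libraries were at 0, 0.1002 and 0.143 FPKM and IL-2 libraries at 65.6, 67.4 and 67.4. Cocktail libraries were at 20.6, 21.2 and 23.1 FPKM in CD44+CD62L-, 21.9, 17.6 and 18.8 in CD44+CD62L+ and 8.698, 10.4 and 11.1 in CD44loCD62L+ cells. Each cultured library was above each naive one, and each IL-2 library above each cocktail one. Cdkn2a fell 3.09-fold in cocktail CD44+CD62L- against IL-2 cells of the same gate (log2 fold change -1.58, SE 0.0854, adjusted p = 7.87e-10). It was 6.64-fold lower in CD44loCD62L+ than in IL-2 cells (log2 fold change -2.62, SE 0.0854, adjusted p = 2.04e-12) and 3.43-fold lower in cocktail CD44+CD62L+ than in IL-2 cells (log2 fold change -1.73, SE 0.0854, adjusted p = 2.95e-10; 8.16% of all genes tested were called in this pair). Against naive cells it rose by 3.35 to 5.97 on the log2(FPKM + 1) scale, with no fold given because a naive library was at 0. Within the cocktail, Cdkn2a fell 2.15-fold in CD44loCD62L+ against CD44+CD62L- cells (log2 fold change -1.04, SE 0.0854, adjusted p = 1.32e-07; 1.97% of all genes tested were called in this pair). CD44loCD62L+ cells had 1.93-fold less than CD44+CD62L+ cells (log2 fold change -0.89, SE 0.0854, adjusted p = 6.57e-07), under the fold minimum, and the CD44+ populations overlapped (adjusted p = 0.167).

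Cdkn2b (chr4:89306299-89311039, minus strand), the INK4 gene 11645 bases from Cdkn2a, had its means in the same order at a lower level, and cocktail CD44+CD62L+ and CD44loCD62L+ libraries overlapped. It was listed at 0 in all 3 naive libraries, where a 0 can be a failed estimate in this table, since Eef1a1, a gene every cell uses, is at 0 throughout. IL-2 libraries had 10.4, 9.65 and 9.85 FPKM and cocktail libraries 2.43, 2.38 and 2.18 (CD44+CD62L-), 1.68, 1.31 and 1.27 (CD44+CD62L+) and 1.01, 1.298 and 1.34 (CD44loCD62L+). Cdkn2b fell 4.28-fold in cocktail CD44+CD62L- against IL-2 cells (log2 fold change -1.72, SE 0.0665, adjusted p = 2.27e-11).

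Cdkn2c (chr4:109660876-109667189, minus strand) encodes p18Ink4c and followed another order, with its peak in cocktail CD44+CD62L+ cells. FPKM was 2.89, 3.299 and 2.83 in naive and 28.2, 30.3 and 29.3 in IL-2 libraries. It was 38.9, 34.04 and 36.97 in cocktail CD44+CD62L-, 45.9, 46.7 and 44.4 in cocktail CD44+CD62L+ and 18.1, 17.8 and 19.5 in cocktail CD44loCD62L+ libraries. No population overlapped another. Cdkn2c fell 2.47-fold in CD44loCD62L+ against cocktail CD44+CD62L+ cells (log2 fold change -1.26, SE 0.0535, adjusted p = 1.33e-10) and rose against naive cells in all 4 cultured populations, from 6.15-fold in CD44loCD62L+ (2.28) to 15.2-fold in cocktail CD44+CD62L+ cells (log2 fold change 3.54, SE 0.0535, adjusted p = 3.74e-16). Unlike Cdkn2a and Cdkn2b, it was 1.25-fold higher in cocktail CD44+CD62L- than in IL-2 cells (log2 fold change 0.31, SE 0.0535, adjusted p = 0.000108), under the fold minimum.

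Cdkn2d (chr9:21288410-21291407, minus strand), the gene of p19Ink4d, was high in every population. Naive libraries had 73.7, 76.5 and 76.5 FPKM and IL-2 libraries 91.1, 89.8 and 88.6. Cocktail libraries had 84.9, 85.96 and 81.9 FPKM in CD44+CD62L-, 104, 104 and 103 in CD44+CD62L+ and 72.3, 71.2 and 73.1 in CD44loCD62L+ cells. The highest population was 1.44-fold above the lowest, and no comparison of Cdkn2d was called. After quantile normalization the log2 fold change of IL-2 against naive cells turned from 0.25 to -0.03 (adjusted p = 0.237), that of cocktail CD44+CD62L- against naive cells went from 0.15 to 0.04 (adjusted p = 0.0594), and that of cocktail CD44+CD62L- against IL-2 cells from -0.09 to 0.07, so these orders depend on the scaling.

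Rb1 (chr14:73183673-73325822, minus strand), the substrate of the D cyclin kinases and repressor of E2F, was lowest in naive cells. Its FPKM was 8.66, 8.76 and 8.72 in naive and 15.6, 16.1 and 16.6 in IL-2 libraries. Cocktail values were 21.4, 21.4 and 21.6 FPKM in CD44+CD62L-, 20.9, 21.5 and 20.9 in CD44+CD62L+ and 16.1, 15.7 and 15.9 in CD44loCD62L+ libraries. Rb1 rose 2.46-fold in cocktail CD44+CD62L- (log2 fold change 1.21, SE 0.0206, adjusted p = 1.37e-15) and 2.42-fold in cocktail CD44+CD62L+ cells against naive cells (log2 fold change 1.19, SE 0.0206, adjusted p = 1.66e-15). With a pseudocount of 5 in place of 1 these log2 fold changes were 0.95 and 0.93, and neither was called. IL-2 cells (1.85-fold, log2 fold change 0.81) and CD44loCD62L+ cells (1.82-fold, 0.80) stayed under the fold minimum. The CD44+ cocktail populations overlapped in Rb1 (adjusted p = 0.406), as did IL-2 and cocktail CD44loCD62L+ cells (adjusted p = 0.462). Lpar6, which lies on the opposite strand inside Rb1, had mean FPKM of 36.2 in naive and 9.61 in IL-2 cells, and reads that the 2 genes share cannot be assigned here.

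Summed over Cdkn1a, Cdkn1b, Cdkn2a, Cdkn2c and Cdkn2d, inhibitor FPKM was lowest in naive cells and made up of other genes there than in cultured cells. The sum was 154 ± 1.104 FPKM (SD, n = 3) in naive, 279 ± 2.11 in IL-2, 233 ± 2.25 in cocktail CD44+CD62L-, 257 ± 2.06 in cocktail CD44+CD62L+ and 191 ± 4.29 in cocktail CD44loCD62L+ cells. Naive cells carried almost only Cdkn1b (48.7% ± 0.805, SD, n = 3, of the sum) and Cdkn2d (49.2% ± 0.726). In IL-2 cells Cdkn1b was 8.696% ± 0.157, whereas Cdkn1a was 24.7% ± 0.129 and Cdkn2a 23.9% ± 0.222 of the sum. The Cdkn2a part includes any p19Arf transcripts, which its row cannot separate, and Cdkn2b (9.96 FPKM in IL-2 cells) is not in the sum. Cocktail CD44+CD62L- cells had 20.4% ± 0.449 Cdkn1b, 18.5% ± 0.318 Cdkn1a and 9.28% ± 0.607 Cdkn2a. Cocktail CD44loCD62L+ cells had the Cdkn1b share nearest to that of naive cells, with 34.4% ± 0.282 Cdkn1b and 5.25% ± 0.537 Cdkn2a. Cocktail CD44+CD62L+ cells gave 17.97% ± 0.534 to Cdkn1b and the largest share of any population to Cdkn2c (17.8% ± 0.444).

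**Figure D2:**
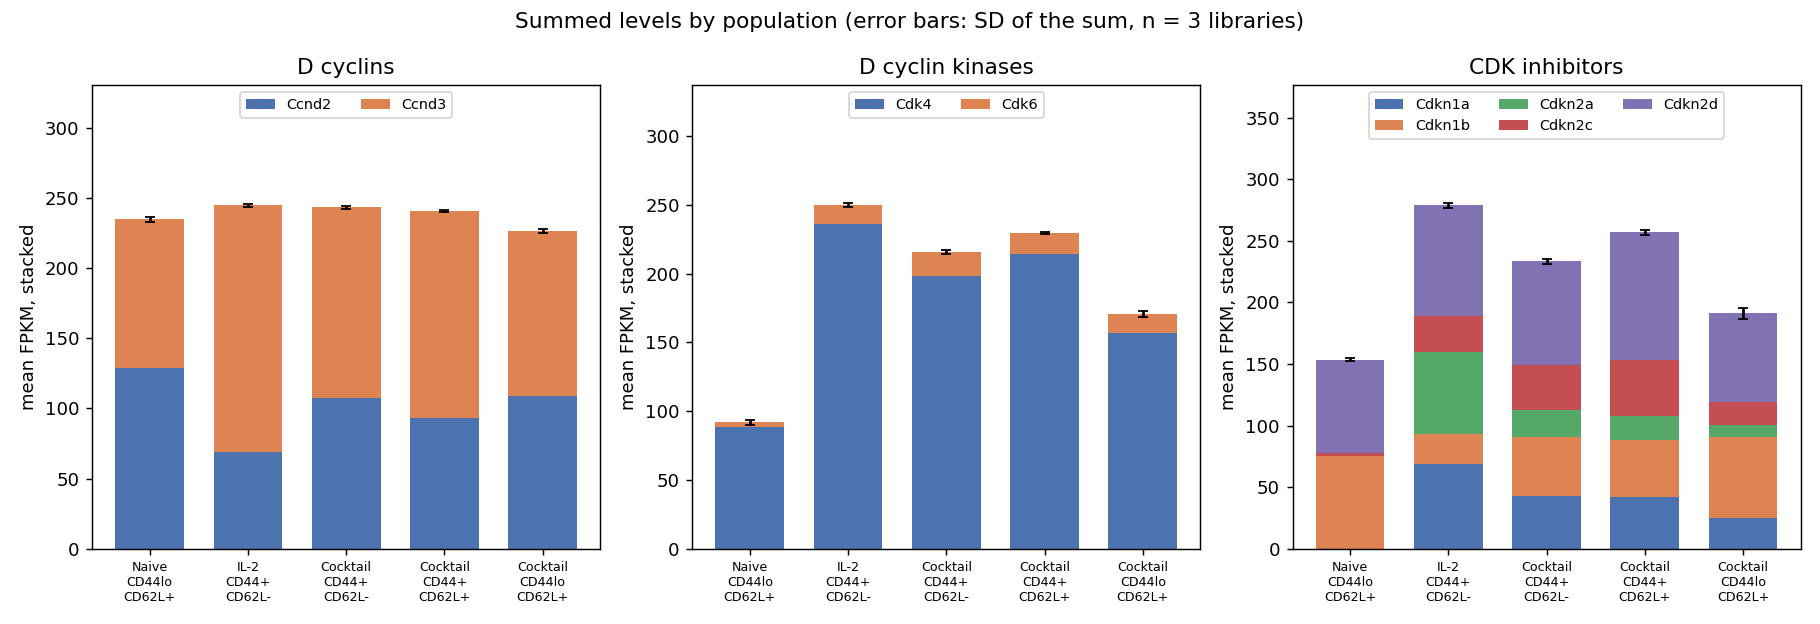
Mean FPKM (y axis, from 0) of the D cyclins, the kinases and the 5 inhibitors, stacked by gene for each of the 5 populations on the x axis, with error bars for the SD of the sum over 3 libraries. The D cyclin sum stays between 227 and 245 FPKM, while the inhibitor bar goes from mostly Cdkn1b and Cdkn2d in naive cells to a mixture of all 5 genes in IL-2 cells.

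Counted by comparison, more members were called between cultured and naive cells than among cultured cells. Cocktail CD44+CD62L- against IL-2 cells, the comparison of culture conditions at the same gate, called 1 of 10 lower (Cdkn2a) and 0 higher, where 7.85% of all 11242 genes tested were called. At an unadjusted p under 0.05, 5 members were higher and 5 lower. The median log2 fold change was 0.11 over the members and -0.0133 over all genes. No library of a member overlapped between these groups, but the share of all genes without overlap was not counted. By another measure, 84.3% of all genes passed the adjusted p without a minimum fold, so small differences often pass in these libraries. The CD62L gate, cocktail CD44+CD62L+ against CD44+CD62L-, called 0 of 10 members by limma (6 had an unadjusted p under 0.05), and 13 genes (0.116%) were called in all. Without a minimum fold, 5432 of the 11242 genes passed the adjusted p at that gate. Its members differed by log2 fold changes of -0.20 (Ccnd2) to 0.31 (Cdkn2c). The CD44 gate, cocktail CD44loCD62L+ against CD44+CD62L+, called 1 lower (Cdkn2c) with a background of 2.68%, and the median was -0.42 over the members and 0 over all genes. Only Ccnd2 (0.22) and Cdkn1b (0.50) had a positive log2 fold change at that gate, both with an adjusted p under the threshold, and the other 8 members a negative one. With a minimum of 1.5-fold in place of 2-fold, 4 members were called between the cultures, where 21.9% of all genes were, and 3 at the CD44 gate, where 8.66% were.

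Against naive cells, which are shared by the next 4 comparisons, IL-2 cells had 5 members higher (Cdk4, Cdk6, Cdkn1a, Cdkn2a, Cdkn2c; background 17.6% higher) and 1 lower (Cdkn1b; 13.7% lower). Cocktail CD44+CD62L- cells had 6 of 10 higher, the same genes as in IL-2 cells with Rb1 added (13.9% of all genes higher), and cocktail CD44+CD62L+ cells the same 6 (14.4%). Cocktail CD44loCD62L+ cells had 4 higher, Cdk6, Cdkn1a, Cdkn2a and Cdkn2c (11.6%). The 3 cocktail populations had 0 members called lower by limma, against 8.59%, 8.44% and 6.11% of all genes, and 2, 2 and 3 members lower at an unadjusted p under 0.05. Without a minimum fold, 10192, 10198 and 9956 of 11242 genes passed the adjusted p there, in either direction. Passing a p alone is thus common in these comparisons. The members' median log2 fold change was 1.11 in IL-2, 1.18 in cocktail CD44+CD62L-, 1.23 in cocktail CD44+CD62L+ and 0.81 in cocktail CD44loCD62L+ cells, and that over all genes lay between -0.016 and 0.0164. Quantile normalization lowered the median of all genes by up to 0.109 (cocktail CD44+CD62L+). It took the share of higher genes among all calls from 56.3% to 48.4% in IL-2 cells, so that most calls there were then lower. That share went from 61.8% to 52.0% in cocktail CD44+CD62L-, from 63.0% to 52.3% in cocktail CD44+CD62L+ and from 65.5% to 55.4% in cocktail CD44loCD62L+ cells. The members' counts were the same under quantile normalization.

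**Figure D3:**
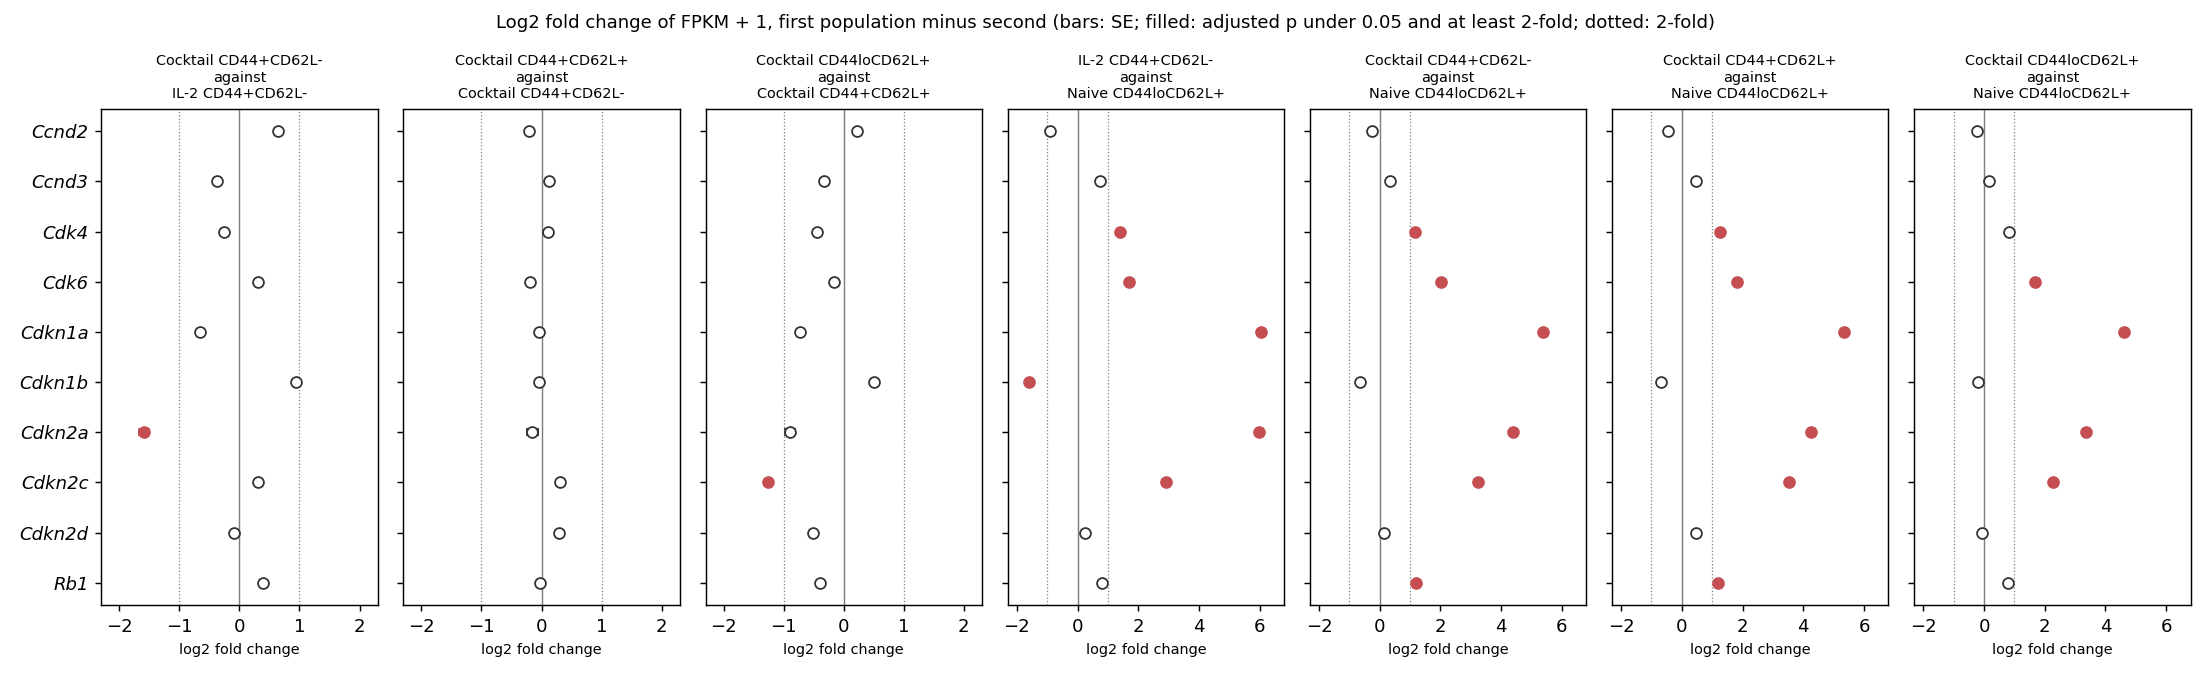
Log2 fold change of FPKM + 1 (x axis; first population minus second) of the 10 genes in 7 comparisons, with SE bars that are mostly smaller than the points, filled points for called genes and dotted lines at 2-fold. The first 3 panels have a narrower x axis than the other 4. Only Cdkn2a between the cultures and Cdkn2c at the CD44 gate are filled among the comparisons of cultured cells.

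The pathway around the members was described with lists of other genes, called by the same rule, so that the shares of all genes given above are the background. Those shares are not the background of counts at an unadjusted p. The adjusted p alone was passed by 9479 of 11242 genes between the cultures, 5432 at the CD62L gate and 8251 at the CD44 gate. Against naive cells 9956 to 10321 genes passed it. Genes downstream of Rb1 and E2F were higher in all cultured populations than in naive cells. Of 20 E2F targets of the G1 to S transition, 19 rose in IL-2, 18 in cocktail CD44+CD62L-, 18 in cocktail CD44+CD62L+ and 12 in cocktail CD44loCD62L+ cells, and 0 fell, also at an unadjusted p under 0.05. Rrm2, a subunit of ribonucleotide reductase, had mean FPKM of 1.88 in naive, 232 in IL-2 and 55.9 in cocktail CD44loCD62L+ cells. Tk1, thymidine kinase, had 1.09, 134 and 42.3 FPKM in the same populations. At the CD44 gate 9 of the 20 fell and 0 rose (median -0.94), with Ccna2, cyclin A2, at 42.6 against 155 FPKM (log2 fold change -1.84, SE 0.0184, adjusted p = 2.31e-16). Between the cultures all 20 had lower values in cocktail CD44+CD62L- than in IL-2 cells (19 with quantile normalization; 20 at an unadjusted p under 0.05, median -0.51), but only Ccne1, cyclin E1, was called, at 28.4 FPKM in cocktail CD44+CD62L- and 68.2 in IL-2 cells (log2 fold change -1.24, SE 0.0289, adjusted p = 1.19e-13).

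All 14 mitosis genes rose against naive cells in each cultured population, and all 14 fell at the CD44 gate (median -1.66). Plk1, a mitotic kinase, was at 20.99 FPKM in CD44loCD62L+ and 86.5 in cocktail CD44+CD62L+ cells (log2 fold change -1.99, SE 0.0251, adjusted p = 1.11e-15), and Mki67, the gene of the proliferation marker Ki-67, at 53.2 and 138 FPKM. At the CD62L gate all 14 had higher values in CD62L+ cells (14 at an unadjusted p under 0.05, median 0.38), and limma called 0. Between the cultures limma also called 0 (13 at an unadjusted p under 0.05), and Ccnb1, cyclin B1, had the lowest log2 fold change (log2 fold change -0.72, SE 0.0272, adjusted p = 1.89e-11) and Top2a, a topoisomerase, the highest (0.35). Cdkn3, a phosphatase of cyclin-dependent kinases grouped here by name with the inhibitors, moved the same way: it was at 0.527 FPKM in naive, 52.2 in IL-2, 44.7 in cocktail CD44+CD62L+ and 20.6 in CD44loCD62L+ cells, and fell at the CD44 gate (log2 fold change -1.08, SE 0.0681, adjusted p = 8.43e-09). Cdkn1c, the remaining CIP/KIP gene, did not exceed 0.162 FPKM in any library and was not tested.

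Among 12 pocket proteins and E2F and DP factors, 6 rose in IL-2, 7 in cocktail CD44+CD62L-, 7 in cocktail CD44+CD62L+ and 5 in cocktail CD44loCD62L+ cells against naive cells, and 0 fell by limma (2 or 3 were lower at an unadjusted p under 0.05). E2f8, a repressor E2F, went from 0.247 FPKM in naive to 27.1 in IL-2 cells and fell at the CD44 gate to 9.45 from 28.7 FPKM (log2 fold change -1.51, SE 0.0227, adjusted p = 4.36e-15), as did E2f7 (-1.23). E2f2, an activator E2F, was at 3.62 FPKM in naive, 46.3 in IL-2 and 28.95 in cocktail CD44+CD62L- cells. The Rb1 relative Rbl2 was at 27.97 FPKM in naive, 35.7 in IL-2 and 48.6 in cocktail CD44+CD62L- cells and was called in neither comparison.

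Of 10 genes for CDK activation and p27 turnover, 3 rose in IL-2, 5 in cocktail CD44+CD62L-, 4 in cocktail CD44+CD62L+ and 3 in cocktail CD44loCD62L+ cells against naive cells. By limma 0 were called lower, and 2, 2, 2 and 3 were lower at an unadjusted p under 0.05. Skp1a was lower in all 4 cultured populations, with means of 149 FPKM in naive and 74.1 in IL-2 cells. That log2 fold change of -0.9999 fell just short of the fold minimum. Cks1b, the cofactor with which Skp2 recognises p27, had mean FPKM of 5.25 in naive, 173 in IL-2, 125 in cocktail CD44+CD62L- and 49.9 in cocktail CD44loCD62L+ cells, and fell at the CD44 gate (log2 fold change -1.54, SE 0.0297, adjusted p = 4.15e-14). CD44loCD62L+ cells, with the highest Cdkn1b level of the cultured populations, had the lowest Cks1b level among these 3 cultured populations. All 14 mitosis genes fell at the CD44 gate as well, and a link between the Cks1b and Cdkn1b RNA levels was not tested. Of 12 quiescence and Foxo genes, 9 fell in IL-2, 7 in cocktail CD44+CD62L-, 7 in cocktail CD44+CD62L+ and 7 in cocktail CD44loCD62L+ cells, while 1 (Klf4) rose in the last. Klf2, a quiescence factor, was at 339.7 FPKM in naive, 25.4 in IL-2, 15.5 in cocktail CD44+CD62L- and 52.7 in cocktail CD44loCD62L+ cells, and rose at the CD44 gate (log2 fold change 1.55, SE 0.0182, adjusted p = 5.76e-16). Pik3ip1, an inhibitor of PI3 kinase, rose in cocktail CD44+CD62L- against IL-2 cells (log2 fold change 1.27, SE 0.0267, adjusted p = 4.08e-14) and at the CD44 gate (1.25), where Cdkn1b had log2 fold changes of 0.94 and 0.50.

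The p53 target list, whose best known gene Cdkn1a was left out of it, did not move in a single direction. Of 14 genes, 4 rose and 5 fell in IL-2 cells, 4 rose and 4 fell in cocktail CD44+CD62L-, 2 rose and 4 fell in cocktail CD44+CD62L+, and 3 rose and 3 fell in cocktail CD44loCD62L+ cells, all against naive cells. Phlda3, an inhibitor of Akt, rose in IL-2 cells from 0.455 to 12.8 FPKM (3.25), whereas Sesn1, a stress protein that restrains mTORC1, fell from 66.5 to 12.9 FPKM (-2.28). Fas, a death receptor, was the only one of the 14 called between the cultures (34.8 FPKM in cocktail CD44+CD62L- and 1.93 in IL-2 cells; log2 fold change 3.61, SE 0.0459, adjusted p = 2.74e-16), where Cdkn1a had -0.66.

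Of 13 regulators of the Cdkn2a locus and of D cyclins, 1 rose in each cultured population, Ezh2, the Polycomb methyltransferase that represses Cdkn2a in many cells. Ezh2 was at 9.896 FPKM in naive, 82.3 in IL-2 and 42.1 in cocktail CD44loCD62L+ cells (IL-2 against naive log2 fold change 2.93, SE 0.0208, adjusted p = 9.68e-20). Its FPKM and that of Cdkn2a were both lowest in naive cells, and a link between them was not tested. The Polycomb genes Cbx7 (59.9 to 16.1 FPKM, -1.84) and Rnf2 (25.3 to 9.02 FPKM, -1.39) fell in IL-2 cells. Both were also called lower than in naive cells in cocktail CD44+CD62L- cells. In cocktail CD44+CD62L+ cells Rnf2 alone was called lower, and in cocktail CD44loCD62L+ cells 0 of the 13 were. At an unadjusted p under 0.05, 9 of the 13 were lower than in naive cells in each cultured population. By limma 0 of the 13 were called between the cultures or at the CD44 gate, with 11 at an unadjusted p under 0.05 in each. Cbx7 was 1.72-fold higher in cocktail CD44+CD62L- than in IL-2 cells (log2 fold change 0.75, SE 0.0178, adjusted p = 1.35e-13), and Myc, whose family binds the E box, was at 69.9 and 82.8 FPKM there, both under the fold minimum.

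**Figure D4:**
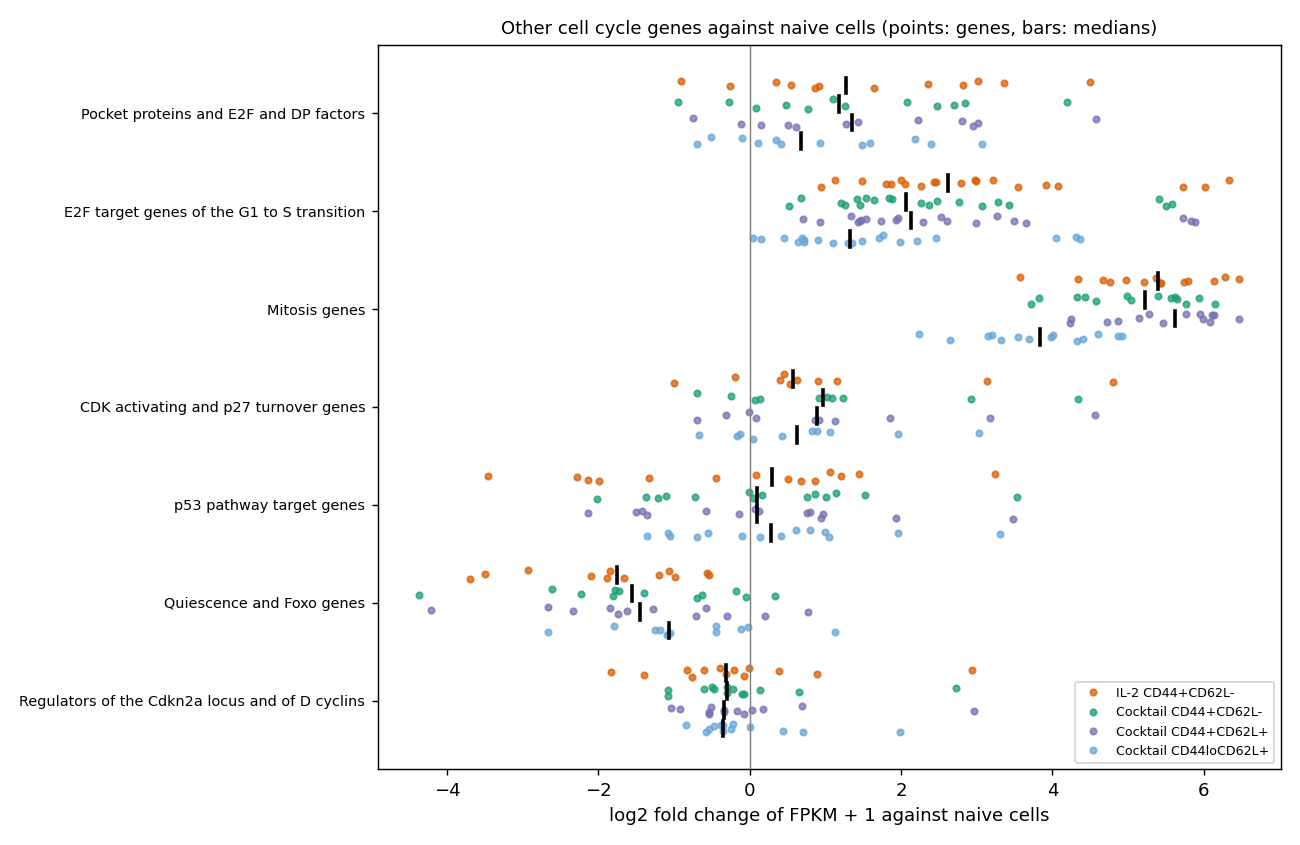
Log2 fold change of FPKM + 1 against naive cells (x axis) for the genes of 7 lists (y axis), with 1 point per gene tested, coloured by cultured population, and a black bar at each list's median. Mitosis genes and E2F targets lie to the right in all 4 populations, least in cocktail CD44loCD62L+ cells, quiescence genes lie mostly to the left, and p53 targets lie on both sides of 0.

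Genes whose mean profile over the 5 populations was nearest to a member's were found among 8540 genes as the root mean square distance of centred log2 values, a description over 5 points. For Cdk4 the nearest were Klhl5 (0.0453), Gars (0.04897) and Pdzd11 (0.0505), and for Cdk6 Eif4e3 (0.0366), Gnaq (0.0698) and Eea1 (0.0861), with the distance in log2 units in parentheses. Cdkn1b was followed by Insr (0.0553), Hist3h2a (0.0695) and Parp6 (0.0732). Cdkn2c was nearest to Tcf19 (0.0953), Phf19 (0.104) and Cit (0.113), and Rb1 to Exoc4 (0.0118), Nagk (0.0356) and Gpr19 (0.0608). No neighbours are given for Cdkn1a and Cdkn2a, whose naive levels near 0 make the distance depend on the pseudocount. The neighbours Cit (0.218 FPKM), Phf19 (0.713) and Gnaq (0.832) were also under 1 FPKM in naive cells, so their distances share that limit. Ccnd2, Ccnd3 and Cdkn2d spanned less than 2-fold over the populations and were not matched.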

How the data were processed

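FPKM values of 15 libraries were deposited by the authors in 1 table, with 1 column per library. TopHat2 2.0.9, Cuffdiff 2.1.1 and build mm10 are named in the submitters' processing notes. Its annotation is not given in the sources used here, nor are settings or strand use. Values were taken to log2(FPKM + 1), and genes whose mean reached 1 FPKM in some population were tested, 11242 of 23284, all 10 members among them. limma 3.58.1 (R 4.3.3; lmFit and eBayes with trend) was fitted to the 15 libraries together, with a term for population alone. P-values were adjusted over all genes within a comparison, and a gene was called at an adjusted p under 0.05 and at least 2-fold. Other alternatives changed the pseudocount, the filter, the scaling, the minimum fold, the libraries fitted and the replicate term.

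Of 15062 ratios of low genes, 51.1% were whole to within 0.05, against 10% by chance. Steps of whole reads thus showed in low genes, but read counts were not recovered from the FPKM values. No libraries were identical. Replicate numbers did not pair the libraries. In simulated data for cocktail CD44+CD62L- against IL-2 cells (11242 genes), the calls took in 48 of 50 genes made 3-fold different and 49 of 50 made 8-fold different. They took in 0 of 50 made 1.5-fold different and 0 of 11042 left alone, which the 2-fold minimum largely ensures by itself. The adjusted p alone was passed by 49 of these 50 and 6 of these 11042 genes. The members and lists were chosen with earlier results of these data known. List genes named are the 2 highest and 2 lowest in a comparison among those that reached a mean of 5 FPKM on either side, and others were named after their values were seen. Gene positions are from GENCODE (GRCm38) and upstream sequences from RefSeq (GRCm38.p6). Figures were drawn with matplotlib 3.10.9.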

Additional observations from a re-analysis of the deposited data

Results flagged for a closer look

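Cdkn2d lay on opposite sides of naive cells in different gates of the cocktail culture and, without quantile normalization, in the IL-2 culture. Against naive cells its log2 fold change was -0.07 in cocktail CD44loCD62L+ cells (limma adjusted p = 0.00622) and 0.25 in IL-2, 0.15 in cocktail CD44+CD62L- and 0.45 in cocktail CD44+CD62L+ cells, with all libraries of each population on one side of the naive libraries. With quantile normalization the values were -0.11 (adjusted p = 0.00032), -0.03 (adjusted p = 0.237), 0.04 (adjusted p = 0.0594) and 0.35 (adjusted p = 1.6e-09) in the same order, so that only the CD44+CD62L+ gate kept the opposite side past the threshold. The difference itself, tested directly, was -0.31 for cocktail CD44loCD62L+ against IL-2 cells (adjusted p = 2.50e-09), -0.22 against cocktail CD44+CD62L- cells (adjusted p = 2.62e-07) and -0.52 against cocktail CD44+CD62L+ cells (adjusted p = 3.45e-11). Each is under the 2-fold minimum, and with quantile normalization they were -0.08, -0.15 and -0.46. In FPKM the cocktail CD44loCD62L+ mean was 4.5% below the naive mean (72.2 against 75.6). Without a minimum fold, 9956 of 11242 genes passed the adjusted p in that comparison, so passing it is common there. Relative depth was 1.231 to 1.248 in the CD44loCD62L+ libraries and 1 to 1.102 in the other cultured ones, and its part in these values was not tested.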

How the results depend on the processing

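Of 24 calls of members in the 7 comparisons, 22 kept their direction and call under each alternative run, including leaving out each library in turn, and 0 reversed. As the libraries of a population are technical replicates, leaving 1 out probes only the spread between them and not between cultures or animals. The exceptions were Rb1 against naive cells with a pseudocount of 5, at 0.95 in cocktail CD44+CD62L- and 0.93 in cocktail CD44+CD62L+ cells, where the larger pseudocount itself shrinks the fold below the minimum. A minimum of 1.5-fold gave 4 called members in place of 1 for cocktail CD44+CD62L- against IL-2 cells (21.9% of all genes in place of 7.85%) and 3 in place of 1 at the CD44 gate (8.66% in place of 2.68%). Alternatives for the order of the populations and for the lists were chosen after seeing the data. Of 275 calls of list genes, 228 were kept under each alternative that tested them and 0 reversed. Same-numbered libraries did not deviate together (correlations of -0.24 to 0.18, with 2 of 30 pairs over 0.1). With a replicate block the members called were 1, 0, 1, 6, 6, 6 and 4 in the 7 comparisons, as without it, the adjacent populations that differed numbered 33 of 40, and list calls 275. Counts of calls over all genes then moved by at most 2, as at the CD44 gate (301 to 303). The depth of the FPKM values is unknown, so the naive levels of Cdkn1a and Cdkn2a and the 0 of Cdkn2b carry no counting interval.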
